A study of Mus musculus with 3 samples.

Results

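The genes of major histocompatibility complex (MHC) class I presentation examined here were *H2-K1*, *H2-D1*, *B2m*, *H2-Q4*, *H2-Q7*, *H2-T23*, *Tap1*, *Tap2*, *Tapbp* and *Nlrc5*. They were taken by symbol from the feature table of a single-cell RNA series of mouse CD4+ T cells, in which all 10 were found among 31053 genes. Nearly every nucleated cell shows class I molecules on its surface, T cells included. Peptides cut by the proteasome are carried into the endoplasmic reticulum by the TAP transporter, loaded with the help of tapasin onto a heavy chain paired with β2-microglobulin, and brought to the surface, where CD8+ T cells and natural killer cells read them. In lymphocytes the transactivator NLRC5 and interferon signaling are known to set the transcription of these genes.

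The series held 3 libraries, 1 for each condition, and asked what follows stimulation through the T cell receptor and what the loss of IFT20, a protein of intraflagellar and vesicle transport, alters in it. Cells came from spleens of male C57BL/6 mice of 5 to 10 weeks, all of which carried *Ift20* f/f alleles, so the WT cells were floxed cells without Cre. In the IFT20-KO mice (Ift20 f/f CD4 cre) the deletion is driven by the *Cd4* promoter and so takes place during thymic development, before any stimulation. Naïve cells were enriched with magnetic beads, and live (7-AAD-negative) CD3+ CD4+ cells were sorted. Unstimulated WT cells (labelled 0 h) were kept in DPBS, whereas stimulated WT and stimulated IFT20-KO cells received antibodies to CD3 and CD28, each at 1 μg/mL, over 24 h. There was no library of cells cultured for 24 h without antibodies. Differences described below as after stimulation thus cannot be told apart from those of time in culture. How many mice gave each library is not given in the sources used here. There was no unstimulated IFT20-KO library, so an effect of the deletion before stimulation cannot be told apart from one on the response.

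The files held whole-number counts of UMIs (unique molecular identifiers, 1 for each RNA molecule caught) for every gene in every barcoded cell. Cells were kept where over 200 genes were seen and mitochondrial UMIs made up less than 15%, the study's own limits. This left 8031 cells of the unstimulated library, 9903 stimulated WT and 13920 IFT20-KO cells, with medians of 4627, 12167 and 5014.5 UMIs per cell. Levels are given as CPM, the UMIs of a gene per 1000000 UMIs of the library, and all intervals are at the 95% level and cover counting error only. No value has a replicate, so no test between conditions was possible. *Ift20* was at 64.4 CPM in unstimulated WT, 76.0 in stimulated WT and 6.60 in IFT20-KO cells, which was the check of the labels. At least 1 UMI of 7 CD4+ T cell markers was found in 99.5% to 99.9% of cells, and *Ms4a1* and *Lyz2* of the B cell and myeloid lists had 0 or 1 UMI per library. The B cell receptor genes *Cd79a* and *Cd79b* had 31, 35 and 26 and 92, 63 and 124 UMIs in unstimulated WT, stimulated WT and IFT20-KO cells. At least 1 UMI of the CD8 T and NK cell list was found in 23.5%, 9.21% and 7.56% of cells, led by *Klrd1* at 42.0, 1.28 and 1.22 CPM and *Cd8b1* at 28.6, 9.04 and 11.2, while *Cd8a* had 6, 14 and 31 UMIs. That list moved with stimulation, and its part in the results was not tested. *Ighm* and *Cst3*, which also stand on the B cell and myeloid marker lists, were at 143 to 283 and 76.3 to 80.3 CPM, and *Cd74* of the class II list was at 10.5, 42.9 and 44.4 CPM. The libraries shared 114 to 197 kept barcodes by pair, under 2% of either library.

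Of the 10 genes, 8 lie on chromosome 17 within the mouse MHC (GRCm38, GENCODE M21). *Tapbp* (chr17:33915899-33929292, plus strand) and *H2-K1* (chr17:33996017-34000347, minus strand) lie at one end of these genes, then *Tap1* (chr17:34187553-34197225, plus strand) and *Tap2* (chr17:34203527-34216321, plus strand). *H2-D1* (chr17:35262730-35267499, plus strand), *H2-Q4* (chr17:35379617-35385290, plus strand), *H2-Q7* (chr17:35439155-35443773, plus strand) and *H2-T23* (chr17:36029773-36032855, minus strand) follow. *B2m* lies on chromosome 2 (chr2:122147686-122153083, plus strand) and *Nlrc5* on chromosome 8 (chr8:94434356-94527272, plus strand). Further genes of the pathway sit beside the transporter genes, with *Psmb8* (chr17:34197721-34201454, plus strand) between *Tap1* and *Tap2* and *Psmb9* (chr17:34181987-34187764, minus strand) overlapping the start of *Tap1*.

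RefSeq promoters (GRCm38.p6) were found for 8 of the 10 genes, all but *Tap2* and *Nlrc5*. The 250 bases before the start site are shown for the heavy chain genes *H2-K1* (chr17:34000348-34000597, minus strand) and *H2-Q7* (chr17:35438905-35439154, plus strand), the light chain gene *B2m* (chr2:122147437-122147686, plus strand) and the transporter gene *Tap1* (chr17:34187306-34187555, plus strand). They were chosen because the levels of the chains and of *Tap1* stood differently after stimulation. Capitals mark matches to 5 motifs searched on both strands, namely the κB site GGGNNTTCC, the interferon-stimulated response element core GAAANNGAA, the interferon gamma-activated site TTCNNNGAA, the cAMP response element core TGACG and the CCAAT box.
H2-K1: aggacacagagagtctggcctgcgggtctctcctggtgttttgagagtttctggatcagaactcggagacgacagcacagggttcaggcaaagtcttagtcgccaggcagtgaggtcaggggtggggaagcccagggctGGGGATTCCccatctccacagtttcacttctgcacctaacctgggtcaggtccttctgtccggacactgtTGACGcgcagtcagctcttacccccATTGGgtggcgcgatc
H2-Q7: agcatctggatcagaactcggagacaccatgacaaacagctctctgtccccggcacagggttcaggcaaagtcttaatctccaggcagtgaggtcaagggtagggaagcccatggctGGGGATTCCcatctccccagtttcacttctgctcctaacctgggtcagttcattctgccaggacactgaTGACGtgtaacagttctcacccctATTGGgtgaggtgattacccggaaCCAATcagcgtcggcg
B2m: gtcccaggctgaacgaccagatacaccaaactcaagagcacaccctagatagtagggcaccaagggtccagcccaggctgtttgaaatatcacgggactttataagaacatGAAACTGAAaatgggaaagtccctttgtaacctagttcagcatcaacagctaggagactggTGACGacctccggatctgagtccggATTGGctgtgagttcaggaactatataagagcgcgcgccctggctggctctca
Tap1: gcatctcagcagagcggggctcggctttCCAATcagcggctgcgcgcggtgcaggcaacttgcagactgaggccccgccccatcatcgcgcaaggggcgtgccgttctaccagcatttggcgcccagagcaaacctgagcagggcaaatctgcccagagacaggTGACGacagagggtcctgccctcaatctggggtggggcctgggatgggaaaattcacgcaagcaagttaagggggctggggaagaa

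The κB letters were in 4 of the 8 promoters, those of *H2-K1*, *H2-D1*, *H2-Q4* and *H2-Q7*, against 4.97% of 32817 RefSeq promoters of the same length. The promoters of these 4 heavy chain genes share stretches of sequence, so their matches to this and the other motifs are not independent. The interferon-stimulated response element core was in 2 of 8, *B2m* and *H2-T23*, against 7.12%. Only the exact letters GAAANNGAA were searched. Other forms of this element were not counted, so the other promoters cannot be said to lack it. The interferon gamma-activated site was in 0 of 8, against 7.01%. The cAMP response element core was in 6 of 8, against 17.7%, and the CCAAT box in 8 of 8, against 33.8%. No pair of capitals in the 4 sequences overlaps. The windows of *Tap1* and *Psmb9* lie on opposite strands and share 225 of their 250 bases, so the printed *Tap1* sequence is largely that of both genes. These matches describe letters and were not tied to any binding data.

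The first comparison, stimulated WT against unstimulated WT, asked how the class I pathway stood after 24 h of stimulation. Over all cells the heavy chain and light chain transcripts made up a smaller share of the RNA in the stimulated library. The *Tap1* ratio was near 0 over all cells (log2 ratio 0.02), but 0.60 in cells thinned to equal depth and 0.49 to 1.92 within bins of cells under 8000 UMIs. By CPM, 8 of the 10 genes were lower by 1.5-fold or more and 0 were higher, where 34.3% of the 13297 genes that had 10 UMIs or more in the 2 libraries together were lower and 28.6% were higher by that much. The median log2 ratio of the 10 genes was -1.27, against -0.09 over all these genes. In thinned cells 6 of the 10 were lower and 1 was higher by 1.5-fold or more, with a median of -0.90, against 0.10 over all genes. The shares of all genes past 1.5-fold were not counted in thinned cells. Together the 10 genes made up 0.830% of all UMIs in the unstimulated and 0.329% in the stimulated library.

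*H2-K1* and *H2-D1* encode the classical heavy chains that present peptide to CD8+ T cells. *H2-K1* was at 2879 CPM (interval 2862 to 2896) in unstimulated WT, 952 (946 to 958) in stimulated WT and 903 (897 to 909) in IFT20-KO cells. The 2 stimulated libraries thus stood close together and far below the unstimulated one, with stimulated WT 3.02-fold lower (log2 ratio -1.60). *H2-D1* was at 2381, 865 and 769 CPM in the same order, 2.75-fold lower after stimulation (log2 ratio -1.46). *B2m*, the light chain shared by all these molecules, was at 1634, 863 and 804 CPM, which is 1.89-fold lower after stimulation (log2 ratio -0.92). The intervals of the 3 genes did not overlap between any 2 libraries. Each gene had 60680 UMIs or more per library, so even small differences exceeded counting error. The share of all genes with such intervals was not counted.

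Of the nonclassical heavy chains, *H2-Q7* and *H2-Q4* showed the widest differences of the 10 genes. *H2-Q7*, which encodes a Qa-2 antigen, was at 343 CPM (337 to 349) in unstimulated WT, 46.7 (45.5 to 47.9) in stimulated WT and 41.9 (40.7 to 43.1) in IFT20-KO cells. Stimulated WT was 7.35-fold lower (log2 ratio -2.88), and 4.13% of all genes tested had a lower ratio. *H2-Q4* was at 322, 70.4 and 68.9 CPM, 4.57-fold lower after stimulation. *H2-T23*, which encodes Qa-1, a ligand of the CD94/NKG2A receptor, was at 133, 47.9 and 50.7 CPM, 2.79-fold lower after stimulation. Stretches of these transcripts also occur in relatives, so some reads may fit both, depending on the end that was read. Of the 90-base windows of the longest *H2-Q7* transcript, 18.1% also occur in another gene, mostly *H2-Q6*, against 9.11% for *H2-T23*, 5.46% for *H2-D1*, 4.40% for *H2-Q4* and 0.131% for *H2-K1*. In the first 500 bases the share was 10.2% for *H2-Q7* and 0% for *H2-T23*, *H2-D1*, *H2-Q4* and *H2-K1*. In the last 500 it was 13.4% for *H2-T23*, 9.49% for *H2-Q4* and 0% for *H2-Q7*, *H2-D1* and *H2-K1*. The sources differ on which end was read.

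Over all cells *Tap1* and *Tapbp* stood apart from the chains, whereas *Tap2* and *Nlrc5* were lower by 1.5-fold or more, as the chains were. *Tap1*, which encodes 1 subunit of the peptide transporter, was at 135 CPM (131 to 139) in unstimulated WT, 137 (135 to 139) in stimulated WT and 99.5 (97.6 to 101) in IFT20-KO cells. Its WT levels overlapped within counting error (log2 ratio 0.02, interval -0.03 to 0.06). *Tap2*, the other subunit, was at 223, 128 and 117 CPM and thus 1.75-fold lower in stimulated than in unstimulated WT. *Tapbp*, which encodes tapasin, was at 220, 165 and 145 CPM, with stimulated WT 1.34-fold lower. *Nlrc5* was at 27.4 CPM (25.8 to 29.2), 13.1 (12.4 to 13.7) and 10.8 (10.2 to 11.5), which is 2.10-fold lower in stimulated than in unstimulated WT. In cells thinned to 1400 UMIs the log2 ratios of *Tap2* and *Nlrc5* were -0.10 and -0.13, against -0.81 and -1.07 over all cells. They were 1.37 and 1.03 in cells of 2000 to 4000 UMIs, where the median of all genes was 0.48. In cells of 8000 to 16000 UMIs they were -0.81 and -1.08.

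**Figure D1:**
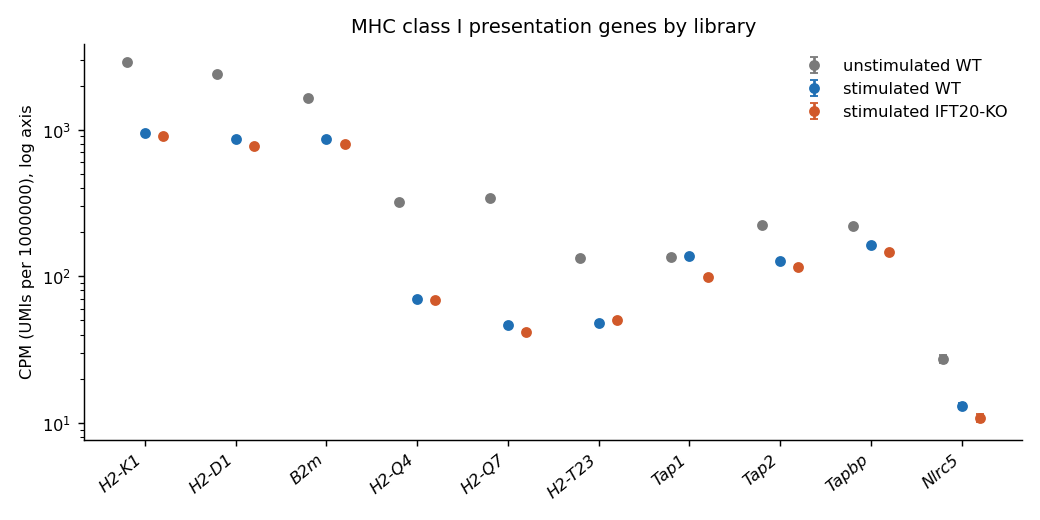
Level of each MHC class I presentation gene (CPM, log axis) in unstimulated WT, in stimulated WT and in stimulated IFT20-KO cells, 1 library each; bars are exact Poisson intervals of the UMI counts, mostly smaller than the points. The 2 stimulated libraries sit together below the unstimulated one for every gene but *Tap1*, whose WT values are 135 and 137 CPM.

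A share of RNA and a number of molecules per cell gave different pictures, because the stimulated WT cells yielded more UMIs each. Counted per cell and without scaling, the median log2 ratio of all genes was 1.26. On that scale *H2-K1* had 13.3 UMIs per unstimulated and 11.2 per stimulated WT cell, and *H2-D1* had 11.0 and 10.2, so the number captured per cell differed little. *B2m* had 7.56 and 10.2 UMIs per cell and was 1.35-fold higher. *H2-Q4* (1.49 and 0.832 UMIs per cell) and *H2-Q7* (1.59 and 0.551) were lower on both scales, by 1.79-fold and 2.88-fold per cell. *Tap1* had 0.625 and 1.61 UMIs per cell, a 2.58-fold higher value, and *Tapbp* had 1.02 and 1.94, a 1.91-fold higher value. Per cell, 2 genes were lower and 2 higher by 1.5-fold or more, where the median of all genes (1.26) was itself higher by more than that. Every one of the 10 genes but *Tap1* lay below that median. Only *H2-Q4* and *H2-Q7* were lower by that much on both scales. How far UMIs per cell follow the RNA content of a cell, rather than the sequencing of its library, was not tested.

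**Figure D2:**
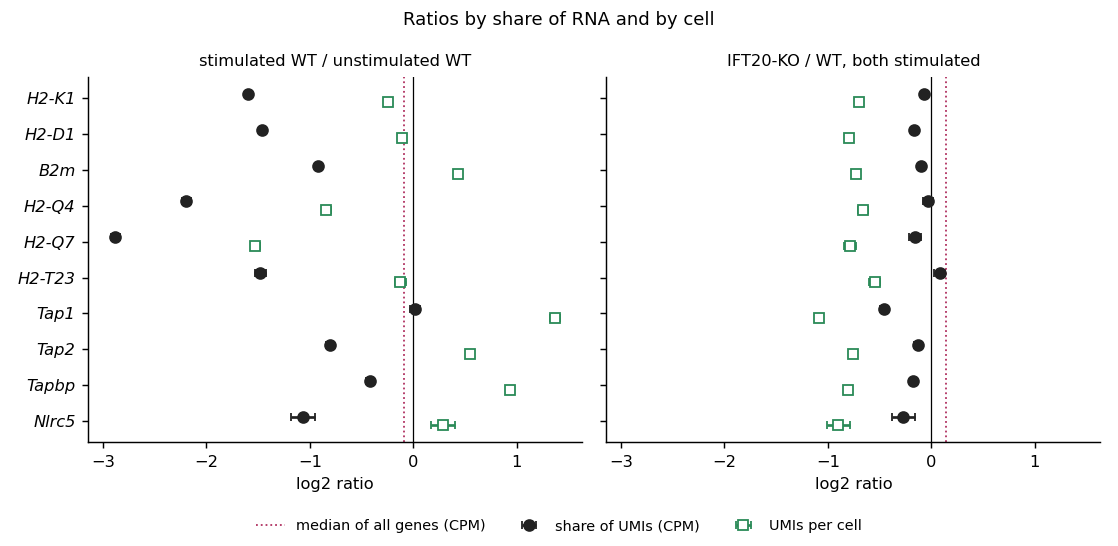
Log2 ratios of the 10 genes for stimulated over unstimulated WT (left) and IFT20-KO over WT, both stimulated (right), with counting intervals; circles are ratios of CPM, squares are ratios of UMIs per cell, and the dotted line is the median CPM ratio of all genes. The squares of the left panel lie to the right of the circles, from -1.52 for *H2-Q7* to 1.37 for *Tap1*.

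The share of cells in which a transcript was caught depends on depth, so each cell was also thinned at random to 1400 UMIs, which left out 801, 421 and 0 shallower cells. Before thinning, *H2-K1* was found in 98.6%, 97.3% and 95.6% of unstimulated WT, stimulated WT and IFT20-KO cells. At equal depth it was found in 97.4% (97.0% to 97.8%), 73.2% (72.3% to 74.1%) and 72.5% (71.7% to 73.2%). Thinned *H2-Q7* was found in 36.5%, 8.24% and 7.05% of cells, against 69.1%, 34.8% and 24.1% before thinning. *Tap1* was found in 17.3%, 21.8% and 16.6% of thinned cells, against 44.3%, 67.1% and 47.5%. Because class I genes are active in nearly all cells, there was no cell type here that should lack them.

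Stimulated cells were also less alike in most of these genes. In thinned cells *H2-K1* had a median of 4 UMIs in unstimulated WT (5th to 95th percentile 1 to 8) and of 1 in stimulated WT (0 to 6). Its variance over its mean was 1.25 in unstimulated WT, 2.35 in stimulated WT and 1.77 in IFT20-KO cells, where 1 is the value of pure counting error. The same ratio for *H2-D1* was 1.13, 1.62 and 1.39. It was higher in both stimulated libraries for every gene but *H2-Q7*, which had 1.15, 1.09 and 1.09. Across thinned cells of 1 library, the Pearson correlation between *H2-K1* and *H2-D1* was 0.100 in 7230 unstimulated WT cells, 0.433 in 9482 stimulated WT cells and 0.291 in 13920 IFT20-KO cells. Between *H2-K1* and *Tap2* it was 0.033, 0.328 and 0.180. These correlations are descriptions over cells that share a library and a fixed UMI total. In stimulated WT the *H2-K1* level also differed with the depth of cells before thinning, as given next. The part of that in the spread and the correlations was not tested.

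Levels also differed with the depth of the cells. In unstimulated WT cells *H2-K1* differed little with depth, at 2829, 3061, 2854 and 2833 CPM in cells with under 2000, 2000 to 4000, 4000 to 8000 and 8000 to 16000 UMIs. Other genes did differ between the unstimulated bins. *Nlrc5* was at 124 CPM in unstimulated cells under 2000 UMIs and 24.7 in those with 8000 to 16000, *Tap2* at 437 and 209, *Tap1* at 242 and 126, and *H2-Q4* at 526 and 293.5, whereas *B2m* was at 662.5 and 1631. The mitochondrial share of UMIs was 9.01% in the unstimulated bin under 2000 and 2.22% to 2.45% in the deeper ones. In stimulated WT cells *H2-K1* was at 2303, 2998, 1337, 951 and 790.1 CPM in these bins and in cells with 16000 or more UMIs. The 885 stimulated WT cells with 2000 to 4000 UMIs, 8.94% of the library, therefore had an *H2-K1* level near that of unstimulated cells. *H2-Q7* did not have it, with 131 CPM in those cells against 363 in unstimulated cells of the same depth. *H2-D1* (1941 against 2636 CPM), *B2m* (1137 against 1673) and *H2-Q4* (302 against 391) were lower there too. *H2-T23* (174 against 141 CPM) was higher. *Tap1* in the same cells was at 566 CPM against 149 in unstimulated cells, and *Tapbp* at 687 against 217. The mitochondrial share of UMIs was 9.63% and 9.79% in stimulated WT cells with under 2000 and with 2000 to 4000 UMIs, against 1.20% to 1.83% in the deeper bins, and its part in these levels was not tested.

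The size of the differences depended on the bin compared. In cells with 8000 to 16000 UMIs, 4466 stimulated and 382 unstimulated (4.76% of the latter library), *H2-K1* was at 2833 and 951 CPM (log2 ratio -1.58), *H2-Q7* at 373 and 48.8 (log2 ratio -2.93), and *Tap1* at 126 in both. All 10 log2 ratios in this bin were at or below 0, with a median of -1.22, against -0.18 over all genes. The bin of 4000 to 8000 UMIs held 62.0% of the unstimulated cells, 4978, and 546 stimulated ones. There 8 of 10 log2 ratios were below 0, with a median of -0.62 against -0.03 over all genes, and *Tap1* (129 and 182 CPM, log2 ratio 0.49) and *Tapbp* (217 and 242 CPM, log2 ratio 0.16) were above 0. In the bin of 2000 to 4000 UMIs 5 of 10 were below 0, with a median of 0.13 against 0.48 over all genes, and *H2-T23* was at 0.30 (0.12 to 0.48). Under 2000 UMIs, with 1414 stimulated and 925 unstimulated cells, 6 of 10 were below 0, with a median of -0.28 against -0.12 over all genes. There *H2-K1* was at -0.30, whereas *B2m* (0.25), *Tap1* (0.79), *Tap2* (0.42) and *Tapbp* (0.77) were above 0. Leaving out the cells under 4000 UMIs, a choice made after the values were seen, kept 8 of 10 genes lower by 1.5-fold or more. The median log2 ratio was then -1.32, against -0.096 over all genes.

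**Figure D3:**
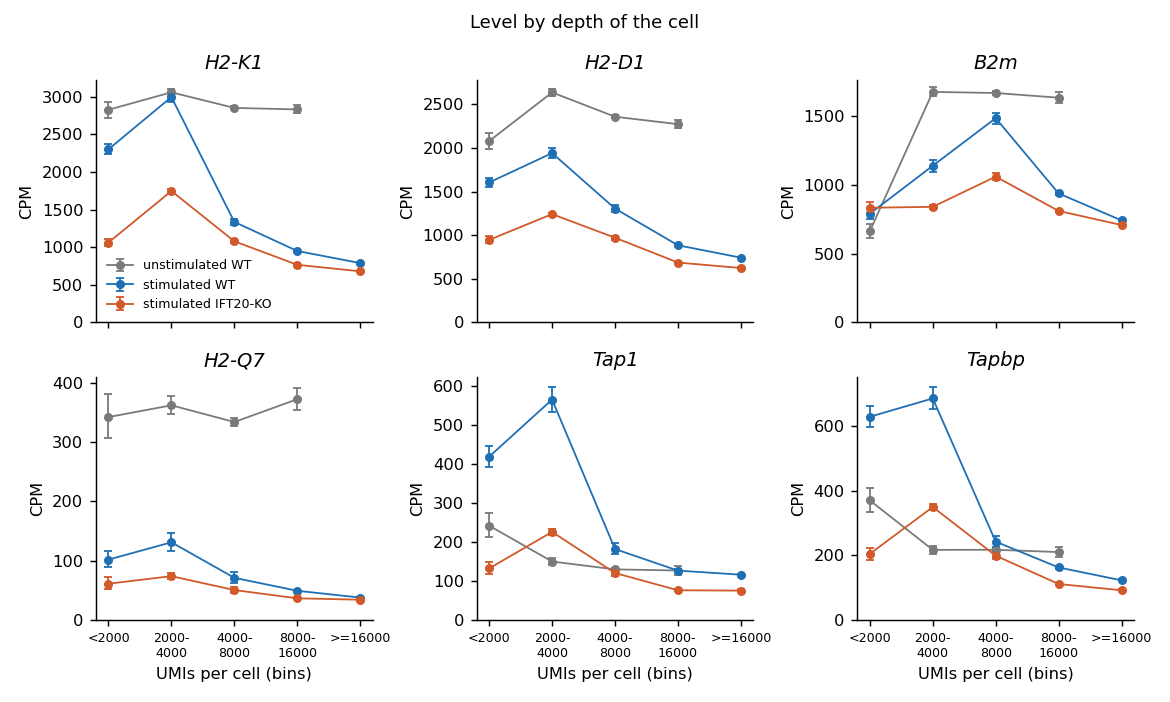
Level (CPM, axes from 0) of 6 of the genes in cells grouped by their UMIs, for the 3 libraries, with exact Poisson intervals. Unstimulated WT is nearly flat for *H2-K1*, whereas stimulated WT runs from 2998 CPM at 2000 to 4000 UMIs down to 790.1 at 16000 or more. The IFT20-KO line lies below the stimulated WT line at every depth except the *B2m* bin of under 2000 UMIs.

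Other genes of the pathway were taken from lists of related function. Of the 9 other class I and class I-like genes with enough UMIs, 9 were lower by 1.5-fold or more after stimulation, with a median log2 ratio of -2.62. Of all genes tested, 34.3% were lower by that much. *Cd1d1*, which encodes a lipid-presenting molecule, was at 28.7, 1.74 and 2.33 CPM in unstimulated WT, stimulated WT and IFT20-KO cells. *H2-Q6* was at 45.5, 5.06 and 5.98 CPM, and *H2-T22* at 269, 109 and 96.6. Stimulation thus went with lower shares across the class I heavy chain family, the members of which also share sequence.

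Peptide supply and loading did not follow the chains. Of 16 such genes, 6 were higher and 2 (*Psmb10* and *Lnpep*) lower by 1.5-fold or more, with a median log2 ratio of 0.31. Over all genes tested 28.6% were higher and 34.3% lower, with a median of -0.09. The 4 with the widest difference were chaperones or folding enzymes of the endoplasmic reticulum. *Hsp90b1* was at 161, 497 and 574 CPM, *Calr*, which encodes calreticulin, at 105, 297 and 303, *Canx*, which encodes calnexin, at 91.6, 234 and 287, and the oxidase gene *Ero1l* at 15.1, 42.5 and 45.1. Their levels were higher in both stimulated libraries than in the unstimulated one. *Psmb8*, an immunoproteasome subunit, was at 644, 491 and 353 CPM and its partner *Psmb9* at 219, 179 and 111. Over all cells these immunoproteasome genes were lower in the stimulated libraries, and lowest in IFT20-KO cells. In stimulated WT the differences were under 1.5-fold (log2 ratios -0.39 and -0.29), and their values by depth are not given here.

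Regulators of class I transcription went both ways, as did all genes tested, of which 28.6% were higher and 34.3% lower by 1.5-fold or more. Of 19 such factors, 5 were higher and 5 lower by 1.5-fold or more after stimulation, with a median log2 ratio of 0.10. *Irf8*, an interferon regulatory factor, was at 3.55, 56.7 and 21.4 CPM, and *Ezh2*, the catalytic subunit of Polycomb repressive complex 2, was at 16.8, 116 and 126. *Stat2* was at 21.2, 5.59 and 6.85 CPM and *Irf9* at 62.9, 23.4 and 17.2, both of them partners in the complex that carries the type I interferon signal. *Rela* and *Nfkb1*, subunits of NF-κB that were chosen after their values were seen because they bind κB sites, were higher by 1.5-fold or more, at 101, 157 and 155 CPM and at 30.8, 47.2 and 52.9.

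Of 10 interferon ligands, receptors and kinases, 2 (*Ifng* and *Jak2*) were higher and 6 lower by 1.5-fold or more, with a median log2 ratio of -1.02. The shares of all genes tested were 28.6% higher and 34.3% lower. *Ifngr1*, a receptor chain for interferon-γ, was at 122, 24.0 and 31.8 CPM, *Ifnar1* of the type I receptor at 73.7, 27.7 and 36.7, and *Socs3*, a feedback inhibitor of cytokine signaling, at 75.9, 8.16 and 7.95. Among 31 interferon-induced genes, 0 were higher and 26 lower by 1.5-fold or more after stimulation, with a median log2 ratio of -2.81. *Irf7* was at 58.2, 1.08 and 0.53 CPM, and *Slfn5* at 56.9, 1.75 and 2.09. Of 11 genes of class I removal and traffic, 3 were higher (*March8*, *Lman1* and *Tmed10*) and 1 was lower (*Sel1l*), with a median of 0.26, and *Lman1*, a cargo receptor for export from the endoplasmic reticulum, was at 21.8, 77.3 and 86.2 CPM.

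The second comparison, stimulated IFT20-KO against stimulated WT, asked whether loss of IFT20 went with a different class I program. Over all cells the differences were small and mostly downward. Of the 10 genes, 0 were higher and 0 lower by 1.5-fold or more, where 13.4% of 13504 genes were higher and 3.27% lower by that much. The log2 ratio was below 0 for 9 of 10 and below the median of all genes for 10 of 10. Its median was -0.14, against 0.14 over all genes. Among genes with a mean of at least 10 CPM the median was 0.070, and *H2-T23* (0.081) lay above it. Both comparisons use the stimulated WT library, so they are not independent.

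*Tap1* differed most, at 137 CPM in stimulated WT and 99.5 in IFT20-KO cells (log2 ratio -0.46, interval -0.49 to -0.42), and 4.28% of all genes had a lower ratio. *Nlrc5* had a log2 ratio of -0.27 (-0.38 to -0.16), *Tapbp* of -0.18 and *Tap2* of -0.13. Of the chains, *H2-D1* was at -0.17, *H2-Q7* at -0.16, *B2m* at -0.10 and *H2-K1* at -0.08. For *H2-Q4* the interval of the ratio spanned 0 (-0.08 to 0.01). *H2-T23* alone was above 0 (0.08, interval 0.03 to 0.14). That is below the median of all genes but above that of genes with at least 10 CPM. Captured molecules per cell were fewer for all 10 genes, such as 11.2 and 6.91 for *H2-K1* and 1.61 and 0.760 for *Tap1*, in a library whose median depth was 5014.5 against 12167 UMIs.

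Within bins of depth the differences were mostly wider, except for *B2m* (0.08 under 2000 and -0.07 at 16000 or more UMIs, against -0.10 over all cells), *H2-Q7* (-0.15 at 16000 or more, against -0.16) and *H2-Q4* (-0.02 at 4000 to 8000, against -0.03). IFT20-KO had 38.6% of its cells at 2000 to 4000 UMIs, where stimulated WT had 8.94%, and in both libraries cells of that depth had the highest *H2-K1* share. At that depth *H2-K1* was at 2998 CPM in stimulated WT and 1748 in IFT20-KO cells (log2 ratio -0.78). In cells with 8000 to 16000 UMIs, the bin with most stimulated WT cells, it was at 951 and 767 (log2 ratio -0.31), and in cells with 16000 or more at 790.1 and 680.5 (log2 ratio -0.22). Every gene was lower in IFT20-KO cells in each of the 4 bins of 2000 UMIs or more, and 9 of 10 in the bin under 2000, where *B2m* was at 789 and 832 CPM. At 4000 to 8000 UMIs the intervals of *H2-Q4* (-0.22 to 0.18) and *H2-T23* (-0.40 to 0.07) spanned 0. The overall ratio of *H2-K1*, -0.08, was thus nearer to 0 than that of any bin, which ran from -1.11 to -0.22.

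*Tap1* was lower in IFT20-KO cells at every depth, with log2 ratios from -1.67 to -0.60. In cells with 8000 to 16000 UMIs it was at 126 and 75.5 CPM (log2 ratio -0.74), and *Nlrc5* at 11.7 and 6.26 (log2 ratio -0.90), *Tapbp* at 162 and 111 (log2 ratio -0.55) and *Tap2* at 119 and 86.2 (log2 ratio -0.46). In that bin *H2-Q7* was at -0.44, *H2-D1* at -0.37 and *B2m* at -0.21. The order differed in cells with 4000 to 8000 UMIs, where *Tap2* was at -0.22, *Tapbp* at -0.29, *H2-D1* at -0.43 and *B2m* at -0.49. The median over the 10 genes in the 5 bins, from shallow to deep, was -1.13, -0.84, -0.37, -0.40 and -0.26, against -0.20, -0.02, 0.17, 0.05 and 0.02 over all genes. The mitochondrial share in the 2 shallow bins was 4.60% and 5.63% in IFT20-KO cells, against 9.63% and 9.79% in stimulated WT cells, and the lowest UMI count of a kept cell was 709 in stimulated WT and 1493 in IFT20-KO. Whether the libraries were prepared together is not given in the sources used here, and the deletion and the library cannot be told apart.

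**Figure D4:**
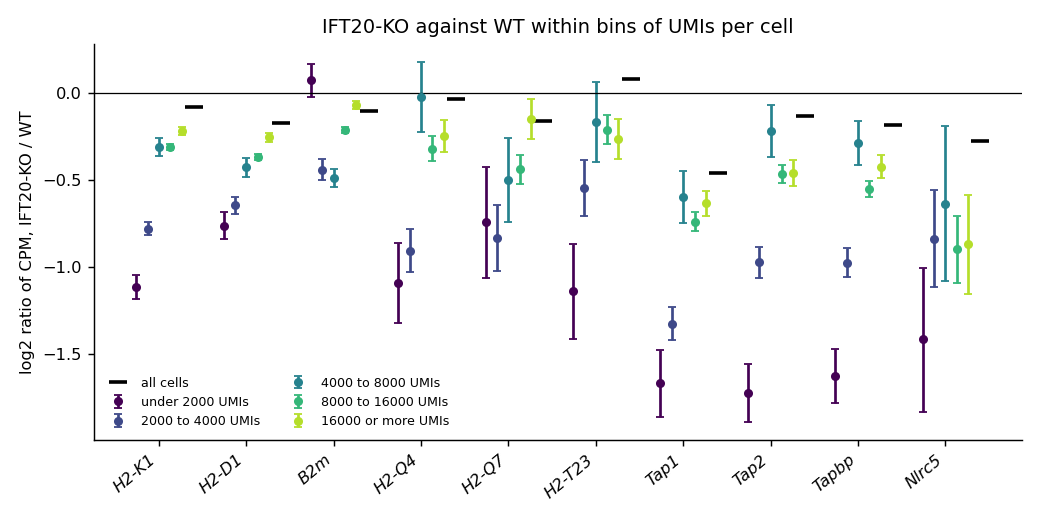
Log2 ratio of CPM, stimulated IFT20-KO over stimulated WT, for each gene in 5 bins of UMIs per cell (points with counting intervals) and over all cells (black dashes). Points lie below 0 in all 5 bins for each gene but *B2m*, and the dashes lie nearer to 0 than most points.

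Other genes of the pathway lay on both sides of 0. Of 16 peptide supply and loading genes, 1 was higher and 1 lower by 1.5-fold or more in IFT20-KO cells, with a median of -0.03. Over all genes tested 13.4% were higher and 3.27% lower, with a median of 0.14. The one lower was *Psmb9* (179 and 111 CPM, log2 ratio -0.69), whose promoter window overlaps that of *Tap1*, and the one higher was the aminopeptidase gene *Lnpep* (55.1 and 92.8 CPM). *Psmb8* had a log2 ratio of -0.47 and the proteasome activator gene *Psme2* of -0.39. Of the chaperone and trimming genes, *Pdia3* was at 0.38, *Canx* at 0.29, *Erap1* at 0.25, *Hsp90b1* at 0.21 and *Calr* at 0.03.

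Of 20 class I transcription factors, 1 was higher and 3 lower by 1.5-fold or more, with a median of 0.02. Of all genes tested, 13.4% were higher and 3.27% lower by that much. These shares were 3.42% and 0.560% among genes with a mean of at least 10 CPM. The higher one was *Rfx5*, at 3.86 and 6.52 CPM. *Irf8* was at 56.7 CPM in stimulated WT and 21.4 in IFT20-KO cells (log2 ratio -1.41) and *Irf1* at 117 and 69.7 (log2 ratio -0.74). The third, *Ciita*, rests on 7 and 3 UMIs. Of 29 interferon-induced genes, 1 was higher and 10 lower, with a median of -0.29. The higher one, *Mx1*, rests on 13 and 28 UMIs. *Isg15* was at 10.4 and 4.22 CPM and *Zbp1* at 46.5 and 24.3.

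The interferon-γ gene *Ifng*, chosen after its values were seen, had 8 UMIs in unstimulated WT, 347 in stimulated WT and 31 in IFT20-KO cells (2.97 and 0.291 CPM after stimulation, log2 ratio -3.35). Those UMIs came from few cells, 0.364% of stimulated WT and 0.101% of IFT20-KO cells. *Ifnb1* had 0 UMIs in every library. Of 10 interferon ligands, receptors and kinases, *Ifng* was the 1 that was lower by 1.5-fold or more and 0 were higher, with a median of 0.24. The shares of all genes tested were 13.4% higher and 3.27% lower. *Ifngr1* was slightly higher in IFT20-KO cells (log2 ratio 0.40). Of 10 other class I and class I-like genes 2 were higher (*H2-Q1* and *H2-Q10*) and 1 was lower (*Fcgrt*), each on at most 20 UMIs per library, with a median of 0.09. Of 11 genes of removal and traffic 1 was higher (*March8*, 121 and 181 UMIs) and 0 were lower, with a median of 0.16.

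Within each library the genes were set against the UMIs that thinned cells carried of the 31 interferon-induced genes, of which *Ifi27l2a* made up 330 of the list's 1089 CPM in stimulated WT. A cut on such a count is a range and not a cell type, and 2919 stimulated WT cells lay next to it, with 2 or 3 UMIs. In stimulated WT, *Tap1* was at 134 CPM in 2455 cells with 0 such UMIs, 186 in 4537 cells with 1 to 2 and 310.1 in 2490 cells with 3 or more. *Tapbp* was at 161, 237 and 401 CPM and *Nlrc5* at 12.2, 26.4 and 37.0 in these cells. *H2-K1* was at 1061, 1230.4 and 1681 CPM, so all these levels were higher where more interferon-induced RNA was found. *H2-K1* and *Tap1* were also higher with more UMIs of naïve-state or G2/M genes, as given below. The cells of the interferon ranges differed in depth before thinning, with medians of 14164, 12992 and 9835.5 UMIs. The part of depth in their order was not tested.

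In unstimulated WT the order was shallower. *H2-K1* was at 2851, 2875 and 2975 CPM in cells with 0, 1 to 2 and 3 or more interferon-induced UMIs, and *Tap1* at 117, 122 and 151. In IFT20-KO cells *H2-K1* was at 1089.6, 1205 and 1320 CPM and *Tap1* at 111, 136 and 198. For cells with 0 such UMIs the stimulated libraries were thus close for *H2-K1* (1061 and 1089.6 CPM, with overlapping intervals). They were also close for cells with 1 to 2 (1230.4 and 1205 CPM, with overlapping intervals). For cells with 3 or more they stood apart (1681 and 1320). *Tap1* in cells with 0 was at 134 CPM (122 to 147) in stimulated WT and 111 (103 to 120) in IFT20-KO. Those cells had median depths of 14164 and 8925.5 UMIs, and the part of depth was not tested. Cells with 3 or more made up 26.3% of stimulated WT and 16.6% of IFT20-KO cells, at median depths of 9835.5 and 3190.5 UMIs.

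**Figure D5:**
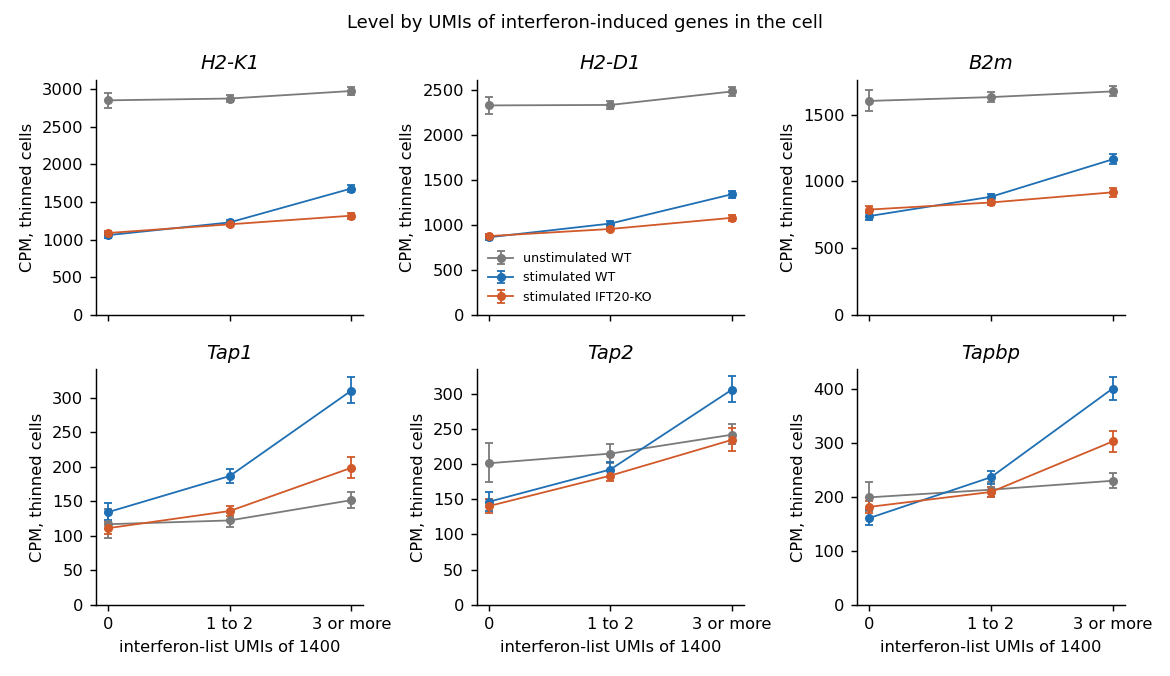
Level (CPM in cells thinned to 1400 UMIs, axes from 0) of 6 of the genes in cells with 0, 1 to 2 and 3 or more UMIs of 31 interferon-induced genes, for the 3 libraries, with exact Poisson intervals. *Tap1* and *Tapbp* are highest in stimulated WT cells with 3 or more, at 310.1 and 401 CPM, whereas *H2-K1*, *H2-D1* and *B2m* are highest in unstimulated WT.

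Cells were likewise set against 7 genes of the naïve state. In stimulated WT, *H2-K1* was at 942 CPM in 3126 cells with 0 naïve-gene UMIs, 1181 in 3844 cells with 1 to 2 and 1946 in 2512 cells with 3 or more, and *Tap1* was at 124, 189 and 331. In IFT20-KO cells *H2-K1* was at 897, 1063 and 1572 CPM and *Tap1* at 86.6, 121 and 201. Cells with 3 or more were again shallower, with medians of 8118.5 UMIs in stimulated WT and 2792.5 in IFT20-KO, against 14287.5 and 10698 for those with 0. In unstimulated cells with 3 or more, *H2-K1* was at 2918 CPM, above the stimulated cells with 3 or more. *Tap1*, *Tap2*, *Tapbp* and *Nlrc5* had the opposite order, at 134, 221, 219.5 and 28.4 CPM in those unstimulated cells and 331, 372, 455.5 and 44.1 in the stimulated WT ones. With 20 G2/M genes, 8119, 1231 and 132 stimulated WT cells had 0, 1 to 2 and 3 or more UMIs. Their median depths were 12565, 12013 and 11872.5 UMIs. *H2-K1* was at 1262, 1505 and 2094 CPM in them and *Tap1* at 191, 275 and 449. *H2-T23* did not rise throughout, at 67.3, 84.1 and 59.5 CPM, the last on 11 UMIs.

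The genes whose level over 14 combinations of library and depth bin ran closest to the mean of *H2-K1*, *H2-D1* and *B2m* were sought among 2819 genes with a mean of at least 50 CPM. They were *Shisa5* (Pearson correlation 0.983), *Ltb*, which encodes lymphotoxin β (0.978), *Ly6e* (0.966), *Ctss*, which encodes cathepsin S (0.966), and *Cd247*, which encodes the ζ chain of the T cell receptor complex (0.962). *Ltb* was at 916, 445 and 413 CPM in unstimulated WT, stimulated WT and IFT20-KO cells, and *Ly6e* at 1462, 361 and 312. Of the remaining genes described here, *H2-Q7* had a correlation of 0.913 with that mean and *Tap1* of 0.451. The 14 points share 3 libraries and are given as a description.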

How the data were processed

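CD4+ T cells of 3 groups (WT without stimulation, WT with it, IFT20-KO with it) were analysed as single-cell RNA libraries, 1 per group by the titles of the labels. The authors deposited UMI counts by gene and cell, made with Cell Ranger (3.1.0 in the file headers, mm10 in the submitters' processing notes) and not normalized. The methods name a 3′ kit and the labels a 5′ kit, which read opposite ends of a transcript. From the counts, barcodes with more than 200 genes and under 15% mt- UMIs were kept, UMIs were summed per library and scaled to CPM. Kept cells held 37133949, 116979076 and 106435143 UMIs. Intervals at the 95% level are exact Poisson (CPM), exact binomial (ratios) and exact Clopper-Pearson (shares). In a ratio, 0 UMIs were replaced by 3. The background of a comparison was the genes with 10 UMIs or more in its 2 libraries together. No doublet caller was run and no doublets were removed.

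The members, the gene lists and the comparisons were chosen with earlier results of these data known. Named are the 10 members, *Ift20*, up to 4 genes per list with the widest log2 ratio among those with at least 10 CPM in either library, and the 5 genes most like the chains, and others were chosen after their values were seen. Alternatives were median-ratio scaling, UMIs per cell, totals without ribosomal protein and mt- genes, means of per-cell fractions, every barcode, limits of over 1000 genes and below 10% mt-, thinning to 1400 UMIs, cells of 3000 to 10000 UMIs, removal of the 6% of cells with the most UMIs or of cells with other-cell markers, 2-fold in place of 1.5-fold, and a background of at least 10 CPM. Python 3.11.15 with numpy 2.4.6, scipy 1.17.1, pandas 2.3.3 and matplotlib 3.10.9 was used, and the calculation was tested on simulated data. Some genes of the lists are not reported here by name.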

Additional observations from a re-analysis of the deposited data

How the results depend on the processing

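With 1 library per condition, depth limits the precision and no alternative gives a replicate error. No paired analysis was possible because each group has 1 library. After stimulation, the median log2 ratio of -1.27 was -1.10 with median-ratio scaling, -1.37 without ribosomal protein and mt- genes in the total, -0.85 with means of per-cell fractions, -0.90 in cells thinned to 1400 UMIs, -0.69 in cells of 3000 to 10000 UMIs and -0.92 without cells with 2 or more UMIs of the B cell, myeloid and class II lists, which removed 3735, 6255 and 6529 cells, largely for *Ighm* and *Cst3*. Without cells carrying defining markers alone (11, 29 and 23 cells, chosen after seeing the data) it was -1.26. As UMIs per cell it was 0.087, the opposite sign, against 1.26 over all genes. On that scale 2 genes were higher and 2 lower by 1.5-fold or more. There *B2m* (0.43), *Tap2* (0.55), *Tapbp* (0.93) and *Nlrc5* (0.28) turned sign, since that scale does not divide by the depth of the cells. *Tapbp*, -0.42 over all cells, was also above 0 with per-cell fractions (0.20), in thinned cells (0.24), at 3000 to 10000 UMIs (0.11) and without the cells with other-cell markers (0.042). Thinning gave 1 gene higher, *Tap1* (0.60). The count lower by 1.5-fold or more was 6 with per-cell fractions, in thinned cells and without the cells with other-cell markers. It was 5 in cells of 3000 to 10000 UMIs. Over all genes the median log2 ratio in these settings was -0.0099, 0.097, -0.016 and -0.012, in the same order. For IFT20-KO, the median of -0.14 was -0.31 with median-ratio scaling, -0.77 as UMIs per cell, -0.19 with per-cell fractions, -0.19 in thinned cells, -0.36 in cells of 3000 to 10000 UMIs, -0.081 with the strict filter and -0.27 in cells with 4000 or more UMIs, chosen after seeing the data. The count lower by 1.5-fold or more was 1, 9, 2 and 2 with median-ratio scaling, UMIs per cell, 3000 to 10000 UMIs and 4000 or more. Over all genes the median log2 ratio was -0.034, -0.49, 0.15 and 0.049 in the same order. Shares of all genes past 1.5-fold were counted only for CPM over all kept cells. With a background of at least 10 CPM, 26.1% and 0.560% of genes were lower by 1.5-fold in the first and second comparison, and 29.0% and 3.42% higher. The cause of these shifts was not tested. Of 76 recomputed counts and medians, 54 were the same by the rule of 1.5 times or counting error, counts of 6 in place of 8 among them.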
